A study of Homo sapiens with 24 samples.

Results

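K562 is an established human leukaemia cell line that carries the BCR-ABL fusion and expresses fetal globin. Its RNA was sequenced at 24 time points after centrifugal elutriation, which sorts cells by size and so gives a population that starts the cycle together. The 6 time points around the passage from the first to the second cycle were examined here, chosen by their time after elutriation: 20, 22 and 24 h as the late first cycle and 26, 28 and 30 h as the early second cycle, 6 of 24 libraries in all. All libraries came from the same line in RPMI medium with bovine calf serum and antibiotics, with no drug or genetic change named. Their labels differ only in the time of sampling, and whether they were prepared or sequenced together is not known. Each time point was 1 library of total RNA, so the spread within a window is that between neighbouring times and not between replicates. An exact permutation test of 3 against 3 cannot go below a two-sided p of 0.10, and no test was made.

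In a dividing cell, cyclin E with its kinase drives entry into S phase, in which DNA is copied, and cyclin B with its kinase drives entry into mitosis. E2F factors are known to raise the genes of S phase, and the DREAM complex and the MuvB proteins with B-MYB and FOXM1 are known to control those of G2 and mitosis through the CHR and CCAAT elements of their promoters. The anaphase-promoting complex then has mitotic proteins destroyed, and their transcripts are known to be low in G1. CCNB1 (cyclin B1) and CCNE2 (cyclin E2) were therefore chosen as markers of the 2 sides of the passage. The windows of CCNE2 overlapped, so its values did not separate the 2 sides.

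Levels are FPKM, the fragments counted per length of transcript and per depth of library, and differences are those of mean log2(FPKM + 1), the early second minus the late first cycle, over the 12179 of 12285 genes whose mean at the 6 time points reached 1 FPKM. A gene was called when all 3 values of one window lay beyond all 3 of the other and the means differed at least 1.5-fold. Windows that do not overlap are said to lie apart, with or without a minimum fold.

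CCNB1 was at 235, 237 and 182 FPKM at 20, 22 and 24 h and at 148, 152 and 171 FPKM at 26, 28 and 30 h. Its windows lay apart, with a difference of -0.46 ± 0.17 on the log2 scale (pooled SD over time points, n = 3 in each window), a fold below the 1.5 of the rule. The level at 22 h was the highest CCNB1 value of the series, and its lowest, 65.0 FPKM, was at 4 h. With 85.7 and 66.7 FPKM at 2 and 6 h, all 3 values of the later window were above those at 2 to 6 h. At 0 h CCNB1 was at 168 FPKM, above its values at 26 and 28 h. In RNA of a whole culture, fewer cells in a phase and less RNA per cell cannot be told apart. The erythroid genes that define the line were present at all 6 time points, with HBG2 between 1911 and 2476 FPKM.

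CCNE2 was at 17.4, 27.1 and 28.5 FPKM at 20, 22 and 24 h and at 30.9, 25.6 and 20.6 FPKM at 26, 28 and 30 h. The windows overlapped, and the difference of 0.09 was smaller than the SD of 0.33 between time points. The value at 26 h was the highest of the 6, below 38.9 FPKM at 2 h and 33.8 FPKM at 4 h. Against 20 and 24 h alone, 26 h was higher by 0.46. Its levels at 24 and 26 h, on either side of the border, were the 2 highest of the passage.

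**Figure D1:**
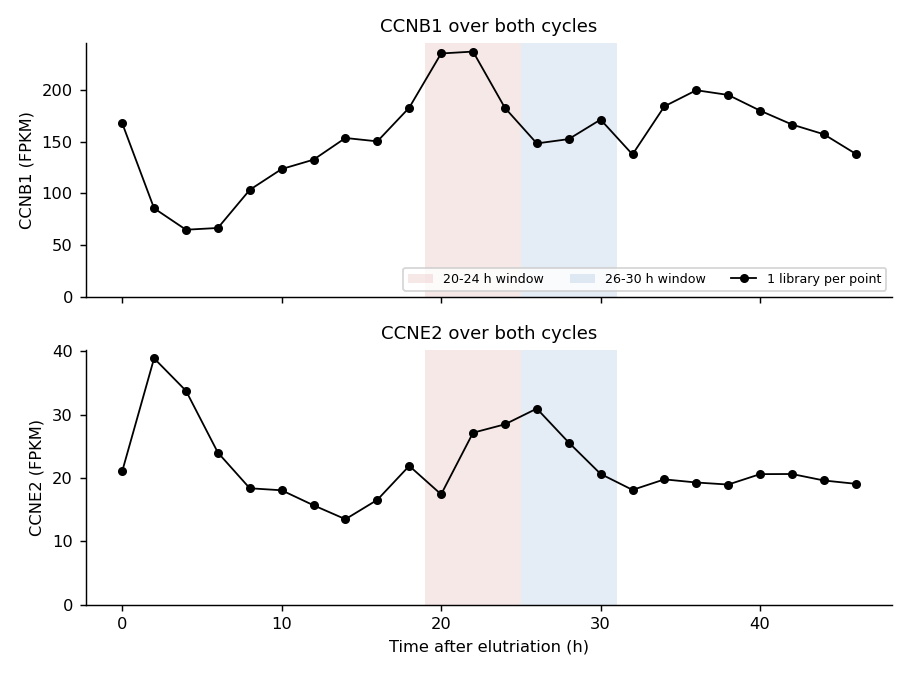
CCNB1 (top) and CCNE2 (bottom) in FPKM against time after elutriation in h, 1 library per point, with the 20-24 h and 26-30 h windows shaded. CCNB1 was highest at 22 h (237 FPKM) and at 148 to 171 FPKM in the later window, and CCNE2 reached 30.9 FPKM at 26 h.

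Few genes differed strongly over the passage. By the 1.5-fold rule 34 genes were higher at 26 to 30 h (0.279% of those tested) and 12 lower (0.0985%). Over all genes tested the median difference was 0.03, and for 90.8% the means differed by less than 1.2-fold. Of the called genes, 21 higher and 10 lower were also beyond both 20 and 24 h by 1.5-fold at 26 h alone, a comparison that leaves out 22, 28 and 30 h and shares its other time points with the first. Among the called genes 10 higher and 2 lower were protein coding, and the others were small nucleolar RNAs, Y RNA copies, pseudogenes, antisense and other noncoding genes, many of them short.

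SNORD68, a small nucleolar RNA, was listed at 1.07, 0 and 4.60 FPKM and then at 9.62, 6.36 and 20.8 FPKM. SNORD48 was at 21.4, 34.3 and 15.6 FPKM and then at 35.2, 63.6 and 57.3 FPKM. SNORD4A went the other way, from 93.8, 90.1 and 82.9 FPKM to 37.8, 66.2 and 53.3 FPKM. Transcripts of this length are shorter than common fragment lengths, for which FPKM estimates are uncertain, and none of these genes is named by the rule for protein-coding genes.

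The one protein-coding gene of at least 10 FPKM that was called and also past 1.5-fold at 26 h alone was PIGY, which acts in GPI anchor synthesis. PIGY was at 26.0, 30.6 and 32.5 FPKM and then at 6.32, 20.3 and 11.1 FPKM, a difference of -1.31 ± 0.56. PIGY shares its transcript with PYURF, so that its share of the reads is uncertain, and it stood at 1.14 FPKM at 6 h and at 2.45e-18 FPKM at 32 h.

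With no minimum fold, windows lay apart for 1574 genes that were higher at 26 to 30 h (12.9%) and 739 that were lower (6.07%). With a minimum of 1.2-fold, chosen after the values were seen, they were 508 (4.17%) and 130 (1.07%). The split between directions followed the scaling: 68.1% of the genes that lay apart were higher as deposited, 48.5% after median centring, 51.6% after upper-quartile scaling, 46.4% after quantile normalization and 50.3% after a trend with GC content was removed. At 1.2-fold the share that was higher was 79.6% as deposited and 59.2%, 66.4%, 57.0% and 62.3% in the same order.

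The 6 libraries were not alike. The deviations of genes from their usual level at 22 h correlated with those at 28 h (Pearson r = 0.60 across genes) and 30 h (r = 0.53), and 28 h with 30 h (r = 0.70), while the other 12 pairs were between -0.09 and 0.22. The library of 26 h was most like those of 32 h (r = 0.33), 6 h (r = 0.31) and 34 h (r = 0.31), and 6 and 32 h were at r = 0.61. These correlations are across 12179 genes, which are not independent. By eye the study marked 32 h as a mild anomaly, which its detection function did not flag. At 22 h the median deviation was 0.10 in the tenth of genes lowest in GC and -0.18 in the highest, and genes higher at 1.2-fold had a median GC content of 55.2% against 44.3% for those lower and 47.8% for all. UBE2S, a ubiquitin-conjugating enzyme of the anaphase-promoting complex, was at 50.3, 12.1 and 42.3 FPKM and then at 60.7, 17.6 and 13.4 FPKM, low at 22, 28 and 30 h in both windows. What part the libraries had in each difference was not tested.

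**Figure D2:**
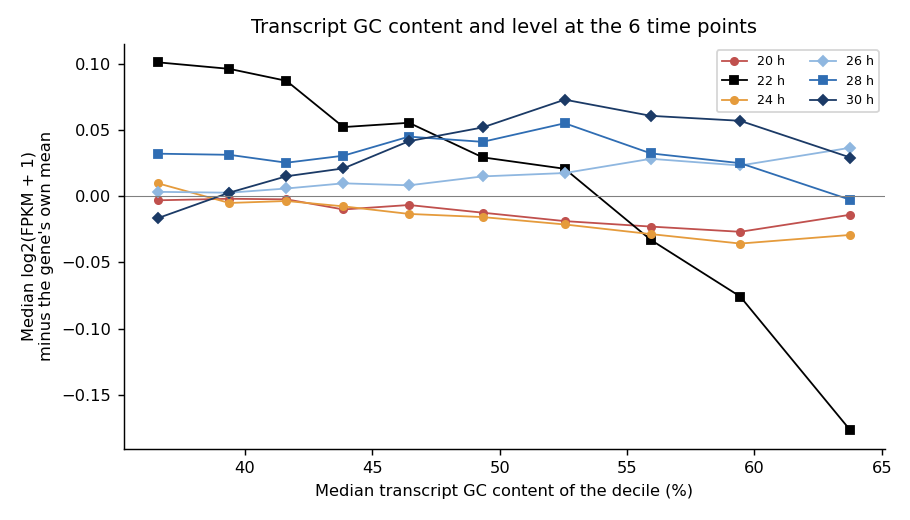
Median log2(FPKM + 1) minus the gene's own mean (vertical axis) in 10 groups of genes ordered by transcript GC content (horizontal axis, %), 1 line per time point of the passage. The line of 22 h falls from 0.10 to -0.18, and the other 5 lie between -0.04 and 0.07.

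Among genes of mitosis more were lower than higher in the early second cycle. Of 122 genes in 5 lists (mitotic cyclins and entry kinases, the anaphase-promoting complex and spindle checkpoint, mitotic kinesins, centromere and kinetochore, spindle and cytokinesis), 25 lay apart and were lower and 7 were higher, against 6.07% and 12.9% of all genes. None was called at 1.5-fold. With a minimum of 1.2-fold 13 were lower and 1 was higher. In a published G2/M list of single tumour cells 13 of 53 tested members were lower and 1 was higher, with a median difference of -0.17 beside 0.03 for all genes. Under the 4 scalings 20 to 25 of its members were lower, while the share of all genes that was lower went to between 8.73% and 10.3%.

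The cyclins and kinases of mitotic entry were led by CCNB1. PLK1, the polo-like kinase of spindle assembly, was at 94.4, 89.5 and 71.9 FPKM and then at 68.1, 58.8 and 64.7 FPKM, a difference of -0.40 ± 0.16. CCNB2 (cyclin B2) was at 78.9, 73.7 and 73.6 FPKM and then at 68.4, 59.8 and 58.6 FPKM. AURKA, the centrosomal Aurora kinase, had a difference of -0.34 with windows that overlapped, since 53.8 FPKM at 30 h was above 52.3 FPKM at 24 h. CDK1, the kinase partner of cyclin B, was at 205, 188 and 166 FPKM and then at 171, 179 and 191 FPKM, with no separation. In this list 6 of 21 members lay apart and were lower, against 6.07% of all genes. FOXM1, with a difference of 0.09, was the 1 that lay apart and was higher, against 12.9% of all genes. PKMYT1, an inhibitory kinase of CDK1, had a difference of 0.28 with windows that overlapped.

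KIF20A, a kinesin needed for cytokinesis, was at 28.4, 29.5 and 21.4 FPKM and then at 17.9, 16.5 and 19.002 FPKM, a difference of -0.53 ± 0.18. KIF14, another kinesin of cytokinesis, was at 23.9, 23.8 and 20.0 FPKM and then at 17.7, 16.9 and 17.5 FPKM. KIF18A, a kinesin of chromosome alignment, differed by -0.31. These were the 3 of 13 mitotic kinesins whose windows lay apart, all lower, against 6.07% of all genes.

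Spindle and cytokinesis genes had 9 of 29 members apart and lower and 0 higher, against 6.07% and 12.9% of all genes. DEPDC1 was at 17.4, 15.7 and 12.1 FPKM and then at 10.99, 10.4 and 8.96 FPKM, and ASPM, a spindle pole protein, at 32.8, 32.3 and 27.4 FPKM and then at 24.7, 24.04 and 23.7 FPKM. Both were lower at every later time point than at any earlier one. In the list of the anaphase-promoting complex and spindle checkpoint 4 of 27 members (14.8%) lay apart and were lower and 3 (11.1%) were higher. The shares of all genes were 6.07% and 12.9%, and the list had a median of -0.06. CDC20, an activator of the complex, differed by -0.35, and SGO2, which protects centromeric cohesion, by -0.33. The 3 that were higher were ANAPC2, ANAPC7 and ANAPC15.

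Kinetochore genes had no single direction as a list. CENPA, the centromeric histone H3 variant, was at 34.8, 25.6 and 22.99 FPKM and then at 22.4, 20.1 and 21.7 FPKM, whereas ZWINT, a partner of the kinetochore protein ZW10, was at 101, 107 and 125 FPKM and then at 155, 141 and 139 FPKM. In that list 3 of 32 members (9.4%) lay apart in each direction, against 12.9% of all genes higher and 6.07% lower. Its median of 0.02 changed sign under median centring, upper-quartile scaling, quantile normalization and without 20, 24 or 30 h. Genes of condensin and mitotic chromatin had a median of 0.01 that also changed sign under all 4 scalings.

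Most of the drop in the median of the mitotic genes lay before 26 h. In the G2/M list the median level relative to each gene's own mean stood at 0.27, 0.31 and 0.04 in the late first cycle and between 0.03 and 0.08 at 26, 28 and 30 h. The median step was -0.22 from 22 to 24 h and -0.03 from 24 to 26 h, and for 41 of 53 members the largest drop of the 5 steps was that from 22 to 24 h, against 2 for 24 to 26 h. From 24 to 26 h 35 of 53 members were again lower, among them CCNB1, with steps of -0.37 from 22 to 24 h and -0.30 from 24 to 26 h. At 22 h the library differed in GC trend from its neighbours, and the step from 20 to 24 h, which leaves it out, went from 0.27 to 0.04. Leaving out 24 h gave 35 of 53 members apart and lower (12.4% of all genes were lower in that setting), with a median of -0.25. The counts were 20 of 29 for spindle and cytokinesis, 13 of 21 for mitotic entry and 9 of 13 for the kinesins. Leaving out any other time point gave 13 to 20, 9 to 13, 6 to 9 and 3 to 4 in the same 4 lists. In those settings 8.51% to 12.3% of all genes were lower.

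**Figure D3:**
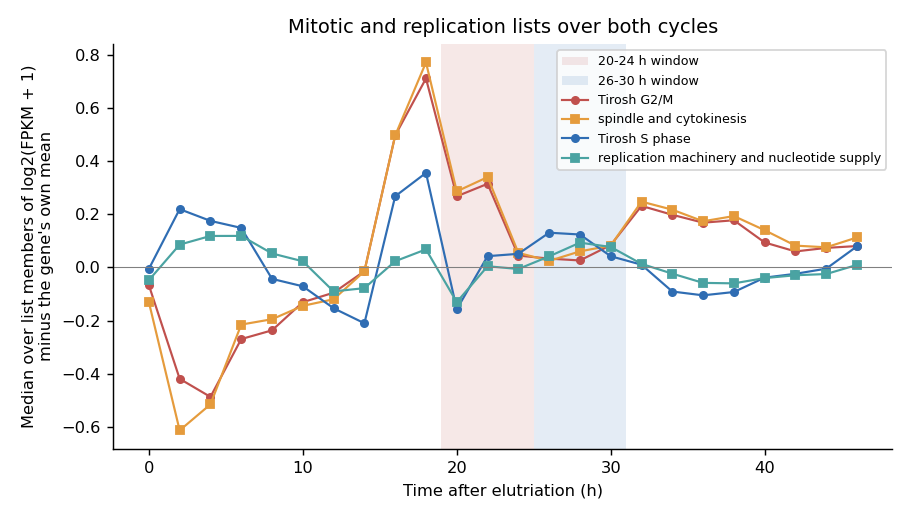
Median over the members of 4 gene lists of log2(FPKM + 1) minus the gene's own mean (vertical axis) against time after elutriation (h), with both windows shaded. The G2/M median goes from 0.31 at 22 h to 0.04 at 24 h and that of the S phase list is highest within the windows at 26 h (0.13). The values at 16 and 18 h belong to time points that the study named as anomalous and did not enter the own mean. The study also marked 32 h by eye as a mild anomaly, and 32 h did enter the own mean.

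Among genes of DNA replication more were higher in the early second cycle, by smaller amounts. Of 34 tested genes of the replication machinery and nucleotide supply 11 lay apart and were higher and 0 were lower, with a median of 0.12. The published S phase list had 12 of 43 higher and 0 lower, with a median of 0.10, against 12.9% and 6.07% of all genes. None of either list was called at 1.5-fold. The counts were smaller after median centring (5 of 34 and 9 of 43) and quantile normalization (6 of 34 and 5 of 43), larger without 22 h (19 of 34 and 19 of 43, with 24.5% of all genes higher in that setting against 9.27% with median centring and 8.88% with quantile normalization), and the medians of both lists stayed above 0 under every alternative run.

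RRM2, the small subunit of ribonucleotide reductase, was at 155, 173 and 197 FPKM and then at 245, 210 and 208 FPKM, a difference of 0.34 ± 0.15. It was highest at 26 h. POLD1, the catalytic subunit of DNA polymerase delta, was at 66.6, 59.9 and 70.8 FPKM and then at 83.9, 80.4 and 79.2 FPKM, and POLA1, that of polymerase alpha, at 16.98, 21.7 and 19.1 FPKM and then at 21.7, 24.99 and 23.9 FPKM. The windows of POLA1 were separated by little, with 22 and 26 h at the same rounded level.

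Origin licensing and firing genes lay apart in both directions, 7 of 26 higher and 4 lower, against 12.9% and 6.07% of all genes. The balance followed the scaling, with 6 higher and 6 lower after median centring and 4 and 5 after upper-quartile scaling. After quantile normalization the counts were 2 and 5, and with the GC trend removed 6 and 5. Under these scalings 8.84% to 9.84% of all genes were higher and 8.73% to 10.3% lower. CDC45, a part of the replicative helicase, was at 161, 169 and 189 FPKM and then at 213, 207 and 202 FPKM, and MCM5, another helicase subunit, at 71.0, 88.2 and 85.1 FPKM and then at 94.0, 102 and 95.3 FPKM. As deposited, the 4 that were lower were DBF4, ORC5, ORC3 and ORC1. CDT1, the licensing factor, had a difference of 0.25 with windows that overlapped.

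Among the cyclins and E2F regulators of G1 and S phase 1 of 18 lay apart, against 12.9% of all genes higher and 6.07% lower. That member was RBL1 (p107), a pocket protein that binds E2F, at 6.81, 7.36 and 8.03 FPKM and then at 8.97, 9.29 and 8.85 FPKM. E2F1 went from 12.3, 12.2 and 19.4 FPKM to 19.8, 16.2 and 14.5 FPKM and CCNE1 (cyclin E1) from 28.7, 33.0 and 39.2 FPKM to 41.6, 37.1 and 35.5 FPKM, both highest at 26 h with windows that overlapped, as for CCNE2. The list's median of 0.09 changed sign without 20 h. Of the 6 CDK inhibitors, CDKN1C (p57) and CDKN1A (p21) lay apart and were higher, at differences of 0.24 and 0.18, by gaps of 0.0015 and 0.016, and none lay apart under median centring, upper-quartile scaling or removal of the GC trend. Replication-dependent histones, with 2 of 27 apart and higher against 12.9% of all genes, had a median of 0.03. It changed sign under median centring, quantile normalization and removal of the GC trend.

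**Figure D4:**
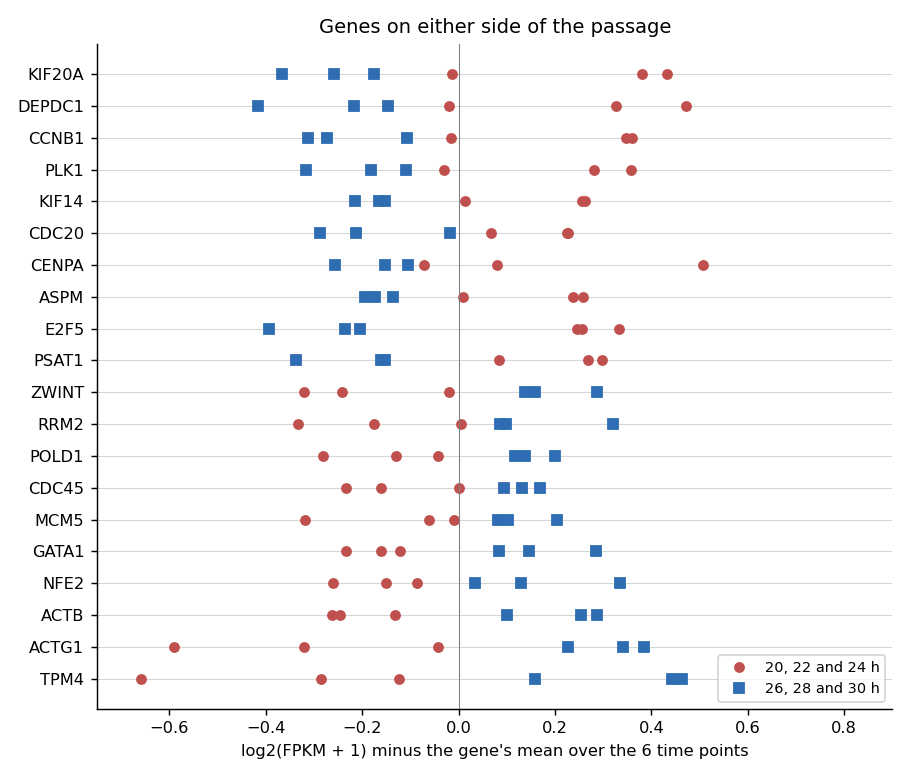
log2(FPKM + 1) minus the gene's mean over the 6 time points (horizontal axis) for 20 genes, with circles for 20, 22 and 24 h and squares for 26, 28 and 30 h. For each gene shown all squares lie on one side of all circles, by a narrow margin for CENPA.

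The promoters of the genes at the head of each group are shown because they hold the elements known from cell-cycle control. The stretches are the 150 bases before the annotated start from RefSeq (GRCh38.p14), on the gene's own strand, which is the plus strand for all 5, with the searched motifs in capitals. They lie at chr5:69167000-69167149 (CCNB1), chr16:23678739-23678888 (PLK1), chr15:59104996-59105145 (CCNB2), chr2:10122589-10122738 (RRM2) and chrX:24693768-24693917 (POLA1).
CCNB1: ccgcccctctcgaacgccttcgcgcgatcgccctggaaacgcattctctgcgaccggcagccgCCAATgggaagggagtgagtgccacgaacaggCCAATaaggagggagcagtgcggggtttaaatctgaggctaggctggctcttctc
PLK1: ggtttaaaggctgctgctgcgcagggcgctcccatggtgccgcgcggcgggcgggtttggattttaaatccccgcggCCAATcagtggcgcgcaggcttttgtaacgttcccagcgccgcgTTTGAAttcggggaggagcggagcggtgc
CCNB2: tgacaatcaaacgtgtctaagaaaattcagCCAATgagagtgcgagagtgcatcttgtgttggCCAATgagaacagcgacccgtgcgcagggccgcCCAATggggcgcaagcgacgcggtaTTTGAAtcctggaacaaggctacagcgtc
RRM2: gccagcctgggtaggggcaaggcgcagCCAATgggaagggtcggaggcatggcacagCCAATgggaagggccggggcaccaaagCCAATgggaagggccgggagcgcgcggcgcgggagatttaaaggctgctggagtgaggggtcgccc
POLA1: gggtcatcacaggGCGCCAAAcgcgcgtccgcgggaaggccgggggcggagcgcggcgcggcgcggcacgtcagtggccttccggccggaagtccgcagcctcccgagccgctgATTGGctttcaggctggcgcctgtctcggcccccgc

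The search covered the 250 bases before and 50 after the start, on both strands, for TTTGAA (the common form of the CHR), for CCAAT, and for 4 forms of the E2F site, TTTGGCGC, TTTCCCGC, TTTGGCGG and TTTCCCGG. PLK1 and CCNB2 held TTTGAA starting at -29 from the start, with CCAAT at -73 in PLK1 and at -54, -87 and -120 in CCNB2. CCNB1 held CCAAT at -87 and -55 and RRM2 at -123, -93 and -66. POLA1 held an E2F form on the other strand (GCGCCAAA) at -137.

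Promoters were at hand for 8964 of the 12007 symbols tested. TTTGAA was in 18 of 25 promoters (72.0%) of the mitotic genes that lay apart and were lower, in 20.7% of the 87 promoters of all genes lower at 1.2-fold and in 7.45% of the 322 of genes higher, against 9.35% of those tested. CCAAT was in 20 of those 25 promoters and 68.9% of the G2/M list, but in 33.3% of all genes lower at 1.2-fold against 37.9% of those tested. For TTTGAA in the whole G2/M list, members that did not lie apart included, the share was 68.9% of 45. The E2F forms were in 40.0% of 30 promoters of the replication machinery and 54.5% of 22 of origin licensing, against 7.51% of those tested, but in 6.83% of genes higher at 1.2-fold. A match is a run of letters and not a site shown to be bound.

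Outside the cycle genes, transcripts of the integrated stress response, by which ATF4 raises amino acid supply, were more often lower than higher. Of 18 tested members 6 lay apart and were lower and 0 were higher, with a median of -0.21, against 6.07% and 12.9% of all genes. PSAT1, an enzyme of serine synthesis, was at 99.4, 101 and 87.2 FPKM and then at 73.9, 73.5 and 64.9 FPKM, a difference of -0.43 ± 0.11. SLC7A11, the cystine transporter, was at 11.7, 10.4 and 9.76 FPKM and then at 8.91, 8.26 and 7.39 FPKM. ATF4 itself differed by -0.10 with windows that overlapped, the median was -0.12 without 20 h, and 10 members were lower once the GC trend was removed (8.73% of all genes) and 11 without 24 h (12.4%).

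Among erythroid regulators several were higher. Of 19 members of the erythroid identity list 9 lay apart and were higher and 0 were lower, against 12.9% and 6.07% of all genes. The median was 0.12, and 7 of the 19 had a difference below 0. After median centring 7 lay apart and were higher and 2 were lower, and 1 was lower under each other scaling. GATA1, the master regulator of red cell genes, was at 109, 104 and 112 FPKM and then at 129, 135 and 149 FPKM, a difference of 0.34 ± 0.08. NFE2, its partner at the globin locus, was at 93.9, 87.0 and 98.2 FPKM and then at 107, 114 and 132 FPKM. GFI1B, a transcriptional repressor needed in the erythroid and megakaryocyte lines, differed by 0.42. The fetal globin genes HBG1 and HBG2 had differences of -0.14 and -0.16 with windows that overlapped, and the globin and heme list, with 5 of 18 higher and 1 lower, had a median of 0.0043 that changed sign under each scaling.

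Actin genes were among the largest differences, and the list of 40 cytoskeletal genes used for them was drawn up after these values were seen. ACTG1 (gamma actin) was at 327, 394 and 479 FPKM and then at 577, 624 and 644 FPKM, a 1.55-fold difference of means. TPM4, a tropomyosin that lies along actin filaments, was at 10.4, 13.7 and 15.5 FPKM and then at 19.1, 23.8 and 23.4 FPKM. ACTB (beta actin) was at 1404, 1388 and 1519 FPKM and then at 1985, 1787 and 2032 FPKM, with higher values of 3125 FPKM at 6 h and 2810 FPKM at 32 h, the libraries most like that of 26 h. Both actins have many near-identical pseudogenes, with which reads may be shared. In the list 14 of 38 tested members lay apart and were higher and 2 were lower, against 12.9% and 6.07% of all genes. With 22 h left out, 23 were higher (24.5% of all genes). Members that did not lie apart included VCL (-0.01), FLNA (0.09) and TMSB4X (-0.33).

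**Figure D5:**
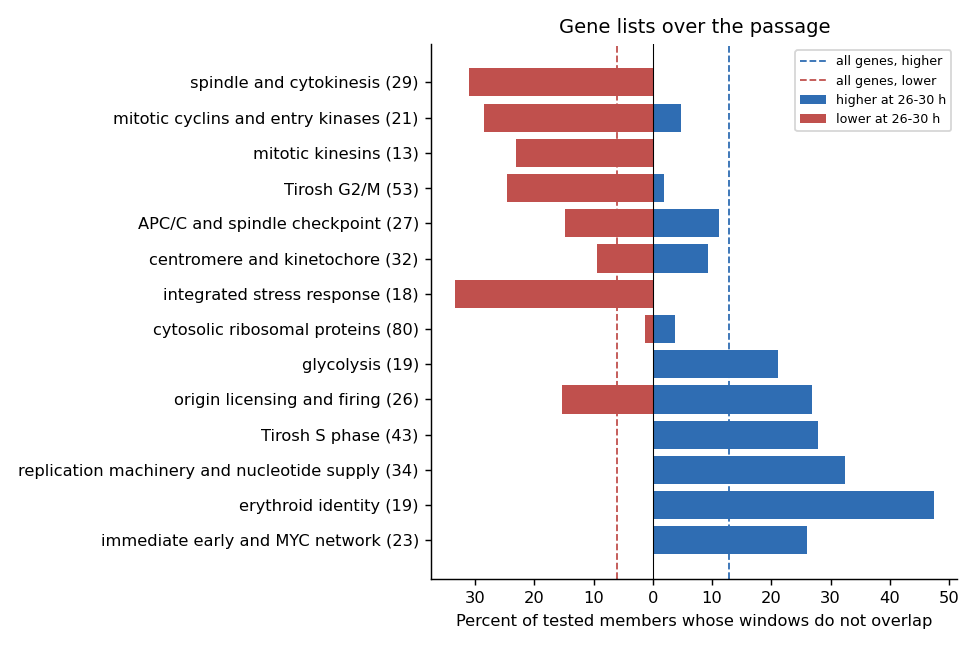
Percent of the tested members of 14 gene lists (number tested in parentheses) whose windows did not overlap, to the right when higher and to the left when lower at 26 to 30 h, with dashed lines for all genes (12.9% and 6.07%). Shares of replication and erythroid lists lie beyond the line on the right and those of spindle and mitotic entry lists beyond the line on the left.

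The other lists are read beside the 12.9% of all genes that lay apart and were higher and the 6.07% that were lower. Immediate early and MYC network genes had 6 of 23 higher and 0 lower, with BTG2 at 0.52 (2 higher once the GC trend was removed). Glycolysis had 4 of 19 higher, with a median of 0.07 that changed sign when the GC trend was removed. Heat shock chaperones had 1 of 18 lower. Cytosolic ribosomal protein genes had 3 of 80 higher and 1 lower, and cholesterol genes 2 of 24 higher and 4 lower, with medians of 0.03 and -0.0020 whose signs changed under several alternatives. A list of long noncoding RNAs had 4 of 8 higher, NEAT1 at 0.43 and also GAS5, MEG3 and SNHG1. It had 2 higher under median centring, upper-quartile scaling and removal of the GC trend and 1 under quantile normalization. The 5 mitochondrially encoded genes tested were at a median level of -0.47 at 26 h and 0.21 and 0.23 at 28 and 30 h, and their median difference of -0.16 was above 0 without 26 h. Of the marker lists of other cell types, 3 fibroblast, 2 lymphoid and 1 monocyte gene were in the table, of which CD3D lay apart.

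The 12 protein-coding genes with the largest fall and the 12 with the largest rise at 1.2-fold, each also past 1.2-fold at 26 h alone, included several not in the lists. E2F5, an E2F of the repressor class, was at 13.8, 13.1 and 12.98 FPKM and then at 9.22, 7.97 and 9.01 FPKM, a difference of -0.56 ± 0.08. MT2A, a metallothionein that binds zinc and copper, was at 20.1, 13.7 and 14.1 FPKM and then at 11.2, 7.74 and 8.44 FPKM. LEPR (the leptin receptor, which overlaps LEPROT), DPH6 (diphthamide synthesis) and MT-ND4 each differed by -0.46. MT-ND4 belongs to the mitochondrially encoded list and was lowest of the 6 time points at 26 h, at 13.7 FPKM. On the other side GIPR, the receptor of the gut hormone GIP, was at 7.02, 8.48 and 9.04 FPKM and then at 11.5, 16.3 and 16.9 FPKM. NOSTRIN, which binds endothelial nitric oxide synthase, was at 14.0, 12.3 and 15.2 FPKM and then at 18.2, 24.4 and 30.1 FPKM, and CHTF18, a clamp loader subunit of sister chromatid cohesion, differed by 0.50. EGFL7, CFAP161, TNNI3, AGRN, AMDHD2, MED22 and GABBR1 had differences between 0.46 and 0.56.

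The comparison of 2, 4 and 6 h with 44 and 46 h was set beside the passage as libraries that it did not use. It leaves out 0 h, where CCNB1 was at 168 FPKM. The G2/M median was -0.07 at 0 h, against -0.42, -0.49 and -0.27 at 2, 4 and 6 h. The time since elutriation also differs between the 2 sides of that comparison, in the opposite order. The G2/M median at 44 and 46 h, 0.07 and 0.08, was within that of 26 to 30 h and below that of 32 to 38 h (0.17 to 0.23), and CCNB1 was at 157 and 138 FPKM, so mitotic transcripts were not high at these hours and the differences lay with low values at 2 to 6 h. Of all genes 25.1% lay apart and were higher at 2 to 6 h and 24.6% lower. In the G2/M list 39 of 53 were lower and 3 higher, with a median of -0.48, and in the spindle and cytokinesis list 23 of 29 were lower and 0 higher. In the S phase list 17 of 43 were higher and 2 lower, with a median of 0.19. KIF20A differed by -1.65, CCNB1 by -1.02 and CCNE2 by 0.68, each with windows apart. The values for stress response genes, with 11 of 18 lower, rested in size on 46 h: the median was -0.73 with it and -0.44 against 44 h alone.

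Genes higher over the passage lay apart more often in the opposite direction there than in the same, and genes lower more often in the same. The shares of all genes were 25.1% higher at 2 to 6 h and 24.6% lower. Of the 508 genes higher at 1.2-fold 92 lay apart and were higher at 2 to 6 h and 167 were lower. Of the 130 genes lower 44 were lower and 16 higher. Among actin genes ACTG1 was higher by 0.35 and TPM4 by 0.04, the latter with no separation, and GATA1 was at -0.10 with none.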

How the data were processed

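Total RNA of the K562 cell line was sequenced at 24 time points, 1 library each. The authors aligned reads with STAR and quantified and normalized them with Cufflinks2, and their processing notes also name Cuffnorm and GRCh37; versions were not given in the sources used here. The authors deposited FPKM values per gene, used here as deposited, and a second table holding a cleaned score per gene (a Z-score then quantile normalized), used only as a check. Each sample was assigned to its time from its label, and no column was left unused.

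The 6 time points, the gene lists and the rules were chosen with earlier results of these data known. Differences were means of log2(FPKM + 1), with a pseudocount of 1, which understates changes of low genes, over genes averaging 1 FPKM or more at the 6 time points. The rule for named genes took CCNB1 and CCNE2, per direction the 12 protein-coding genes of 10 FPKM or more that differed most among those called and held at 26 h (only PIGY met it, so 1.2-fold was added after the values were seen), and up to 4 genes of each cell-cycle list. Other genes were named after their values were seen. With no replicates, no p-value was computed. The script was tested on simulated data. GENCODE 29 gave gene type and GC content (known for 99.2% of genes), 12123 identifiers matched the name table, and no GENCODE coordinates are given.

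Depth is unknown: values under 2 FPKM fell within 0.1 of whole reads in 27.3% of cases or fewer, against up to 27.2% with lengths shuffled, so reads were not recovered and no interval from counts can be given. Alternatives were a pseudocount of 0.1, other filters and folds, median centring, upper-quartile scaling, quantile normalization, removal of a running median over 501 genes ordered by GC, leaving out each time point, and 20 and 24 h against 26 h. Python 3.11.15, numpy 2.4.6, pandas 2.3.3 and matplotlib 3.10.9 were used.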

Additional observations from a re-analysis of the deposited data

Results flagged for a closer look

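For 13 genes named in the report the windows of the passage lay apart in one direction and those of 2 to 6 h against 44 to 46 h in the other. Of all genes tested 25.1% lay apart and were higher at 2 to 6 h and 24.6% were lower, whichever way they went over the passage. The difference between the 2 comparisons was not tested. GIPR, higher over the passage, was lower at 2 to 6 h by a difference of -1.49, NOSTRIN by -1.31, CFAP161 by -1.96, EGFL7 by -0.29, TNNI3 by -0.41, NEAT1 by -1.19, CD3D by -1.003, NFE2 by -0.35, CDKN1A by -0.34 and CDKN1C by -0.25. MT2A, lower over the passage, was higher at 2 to 6 h by 2.78, ORC5 by 0.15 and ORC1 by 0.14. CFAP161 was at 4.92, 4.55 and 3.77 FPKM at 2, 4 and 6 h and at 18.7 and 21.4 FPKM at 44 and 46 h, with 8.20 to 9.59 FPKM before and 11.2 to 15.4 FPKM after the passage. MT2A was at 34.3, 34.6 and 46.6 FPKM at 2, 4 and 6 h and at 3.74 and 5.80 FPKM at 44 and 46 h, and its values of 7.74 to 20.1 FPKM over the passage lay between those ends. For CFAP161 and MT2A the passage values thus stood between those of the start and the end of the series, and the part of time since elutriation was not tested.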

How the results depend on the processing

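Among 744 values for 62 single genes, none of a gene past 1.2-fold with windows apart changed sign. For such a gene another pseudocount, a filter, a leave-out or the comparison with 26 h alone cannot change the sign. Only the 4 scalings could have done so. UBE2S and CENPE, whose windows overlapped, were at 0.39 and 0.13 against 26 h alone. The counts moved most. At 1.5-fold, 34 higher and 12 lower genes became 75 and 21 with a pseudocount of 0.1, 9 and 5 among genes of at least 10 FPKM, and 81 and 93 for 20 and 24 h against 26 h; a 2-fold minimum left 9 higher. Leaving out 1 time point gave 40 to 89 higher and 19 to 46 lower, the most without 26 h and 22 h, as windows with fewer points lie apart more easily. With no minimum fold, 1574 higher and 739 lower became 995 and 463 at 10 FPKM and 5377 and 3395 against 26 h alone, the lower count became 1200, 1126 and 1251 under median centring, upper-quartile scaling and quantile normalization, and leave-outs gave 1959 to 2983 higher and 1036 to 1513 lower. At 1.2-fold, 508 and 130 became 248 and 60 at 10 FPKM, 332 and 229 with median centring, 335 and 253 with quantile normalization, 299 higher with the GC trend removed, 821 and 455 against 26 h alone, and 512 to 1017 and 144 to 295 on leaving out 1 time point. CCNE2 was at 0.46 against 26 h alone and between -0.13 and 0.23 on leave-outs, CCNB1 between -0.58 and -0.40, the G2/M median between -0.25 and -0.12 and the S phase median between 0.05 and 0.16. In the cleaned scores 30 of the 34 and 12 of the 12 genes called lay apart in the same direction. Without 6 h, 46 of 53 G2/M members were lower and 24 of 43 S phase members higher at 2 to 4 h than at 44 to 46 h. With 1 library per time point and unknown depth, counting error and library effects cannot be told apart from time.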
